A study of Mus musculus with 30 samples.

Results

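The 10 genes described here are 2 metallothionein genes and 8 genes of the glucocorticoid response, chosen by name as Mt1, Mt2, Fkbp5, Tsc22d3, Cebpb, Cebpd, Zbtb16, Dusp1, Ddit4 and Klf9. They are 10 of 18193 genes with a probe set of their own on the Affymetrix Mouse Genome 430 2.0 array, and 26 of its 45101 probe sets carry one of these symbols alone. RNA came from heart, kidney, brain and vessel of male C57BL/6 mice of 8 to 10 weeks at the start. Angiotensin II, the vasoconstrictor peptide that raises blood pressure, reached the mice for 1, 3 or 7 days through an osmotic pump, 1500 ng for each kg of body weight and minute, and the day 0 groups are labelled as having had none. Heart had 3 arrays on each of days 0, 1, 3 and 7, kidney 2 on each, brain 2 on each of days 0, 3 and 7, and vessel 1 on each of days 0, 1, 3 and 7, which makes 30 arrays in 15 groups. The vehicle was Ringer's solution, given as dilute acetic acid in saline, blood pressure was taken daily with a tail cuff during infusion, and the mice were killed with pentobarbital. The labels do not say whether the day 0 mice carried a pump, at what hour tissue was taken, or whether heart and kidney arrays of the same number came from the same mouse. They do call the arrays biological replicates. Whether pump surgery is part of the difference between treated and day 0 mice is therefore not known. The comparison at the centre is day 1 against day 0, where the question is whether genes that respond to circulating stress hormone moved together in heart and kidney.

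Glucocorticoids such as corticosterone, the main one of the mouse, are released by the adrenal cortex under stress and act in almost every organ through the glucocorticoid receptor, a transcription factor that enters the nucleus when it binds hormone. Its direct targets include feedback inhibitors and metabolic regulators. Metallothioneins are small cysteine-rich proteins that bind zinc and copper, and their genes are switched on by the zinc sensor Mtf1 and also by glucocorticoids and by interleukin 6 signalling. Cebpb and Cebpd encode transcription factors of the acute phase response, which interleukin 6 also induces. The 10 genes thus answer to more than one signal, and the choice of genes does not separate them.

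Mt1 and Mt2 lie on mouse chromosome 8, with 5316 bases between the end of Mt2 and the start of Mt1 in the RefSeq annotation of GRCm38.p6. RefSeq's promoter windows, which run from 250 bases before to 50 bases after a listed start, are shown for this pair because Mt1 and Mt2 were the 2 genes of the 10 called in both heart and kidney on day 1. Capitals mark the core of the metal response element, searched as TGCACNC or TGCGCNC on both strands. The window of Mt1 is chr8:94178839-94179138, plus strand, and that of Mt2 is chr8:94172368-94172667, plus strand. The annotated Mt1 gene starts at 94178883, less than 250 bases after the window begins. The Mt1 window thus follows a different start from the one used for the distance to Mt2.
Mt1: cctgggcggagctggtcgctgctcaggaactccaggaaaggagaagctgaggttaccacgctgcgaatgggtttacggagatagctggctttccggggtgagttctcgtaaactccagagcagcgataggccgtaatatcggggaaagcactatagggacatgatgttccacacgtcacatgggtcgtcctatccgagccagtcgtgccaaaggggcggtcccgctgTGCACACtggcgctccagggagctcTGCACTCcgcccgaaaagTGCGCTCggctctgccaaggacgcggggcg
Mt2: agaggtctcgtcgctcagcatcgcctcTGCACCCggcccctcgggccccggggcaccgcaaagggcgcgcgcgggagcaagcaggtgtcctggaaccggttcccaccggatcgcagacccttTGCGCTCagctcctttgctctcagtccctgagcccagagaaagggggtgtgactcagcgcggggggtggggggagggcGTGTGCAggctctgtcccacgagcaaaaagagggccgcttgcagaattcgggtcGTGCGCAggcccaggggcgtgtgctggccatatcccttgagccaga
The Mt1 window held 3 matches and the Mt2 window 4, and none of the other motifs searched lay in either. Of the 32851 promoter windows in the same table, 25.7% held at least 1 match and 1.97% held 3 or more. The full glucocorticoid response element, searched as AGAACA and TGTTCT with 3 bases between them, was in 0 of the 10 windows listed for 8 of the genes, and in 3 of the 32851. AGAACA by itself was in 1 of the 3 windows of Tsc22d3 and in 19% of all windows. A cyclic AMP response element, TGACGTCA, was in the Dusp1 window and in 1.79% of all windows, and an E box, CACGTG, in the Fkbp5 and Dusp1 windows and in 7.15% of all. Dusp1 and Ddit4 also held 1 metal response core each. Cebpd and Zbtb16 are named only. Binding by the receptor was not measured, and a window without a match says nothing about sites further away.

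The values are the authors' intensities, 1 per probe set and array, on a linear scale that was common to the arrays before deposit, with array medians between 35.2 and 37.8. Changes below are differences of log2(intensity + 16) with their standard error from limma. A change is called where its p, adjusted by Benjamini-Hochberg over all genes tested in that tissue, lies under 0.05. Marker genes put the heart, kidney and brain arrays with their labels. The summed intensity of 7 heart markers was 105234 to 117187 on heart arrays and at most 345 on brain and kidney arrays. The vessel arrays held smooth muscle markers (26522 to 34361 summed) together with adipocyte markers (42958 to 61340) and heart markers (1798 to 16425). Adrenal cortex markers summed to 5939 and 10354 on kidney day 0 replicate 2 and kidney day 3 replicate 2, and to 240 to 283 on the other kidney arrays. In tissue RNA, fewer cells of a type and less RNA per cell cannot be told apart.

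After 1 day of angiotensin II, 4 of the 10 genes rose in heart: Mt2, Cebpd, Cebpb and Mt1. In the same comparison 13.5% of the 13966 genes tested passed the threshold, 4.9% of all genes higher and 8.62% lower. In kidney on day 1 the 2 metallothioneins rose, against a background of 0.502% of 14152 genes. All 10 changes were positive in kidney and 8 of 10 in heart, where Zbtb16 and Klf9 were negative. The share of positive changes over all genes tested was 45.3% in heart and 51.9% in kidney. No gene of the 10 was called lower in either organ.

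Mt2 had intensities of 7002, 6289 and 3224 on the heart arrays of day 1, against 1310.2, 1489 and 2321 on those of day 0. All 3 treated arrays were above all 3 untreated ones, and replicate 3 was the lowest of the treated. The change was 1.65 ± 0.29, or 3.13-fold (adjusted p = 0.00559). In kidney, Mt2 had 2174 and 2604 on the kidney arrays of day 1, against 1269.7 and 976 on those of day 0. The groups did not overlap, and the change of 1.08 ± 0.16 was 2.12-fold (adjusted p = 0.0495). Mt1, the more brightly read of the pair, had 12164, 12274 and 8324 on the heart arrays of day 1, against 7261, 7338 and 7678 on those of day 0. Replicates 1 and 2 of day 1 stood well above every other heart array of days 0 and 1, while replicate 3 was only slightly above day 0. The Mt1 change in heart was 0.53 ± 0.15 (adjusted p = 0.0334). In kidney Mt1 had 5190.2 and 6258 on the kidney arrays of day 1, against 3513 and 3396 on those of day 0. That change was 0.72 ± 0.11 (adjusted p = 0.0495), again without overlap.

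The probe set that gives Mt1 carries the suffix _s_at, which Affymetrix uses for sets whose probes match more than 1 transcript. Whether it also reads Mt2 was not tested, so the 2 genes are not independent evidence of each other. A second, much dimmer probe set of Mt1 (43.9 to 163.7 on heart and kidney arrays) rose in heart, by 0.73 (adjusted p = 0.0155 among all probe sets), and had a change of -0.0019 in kidney (adjusted p = 0.996).

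**Figure D1:**
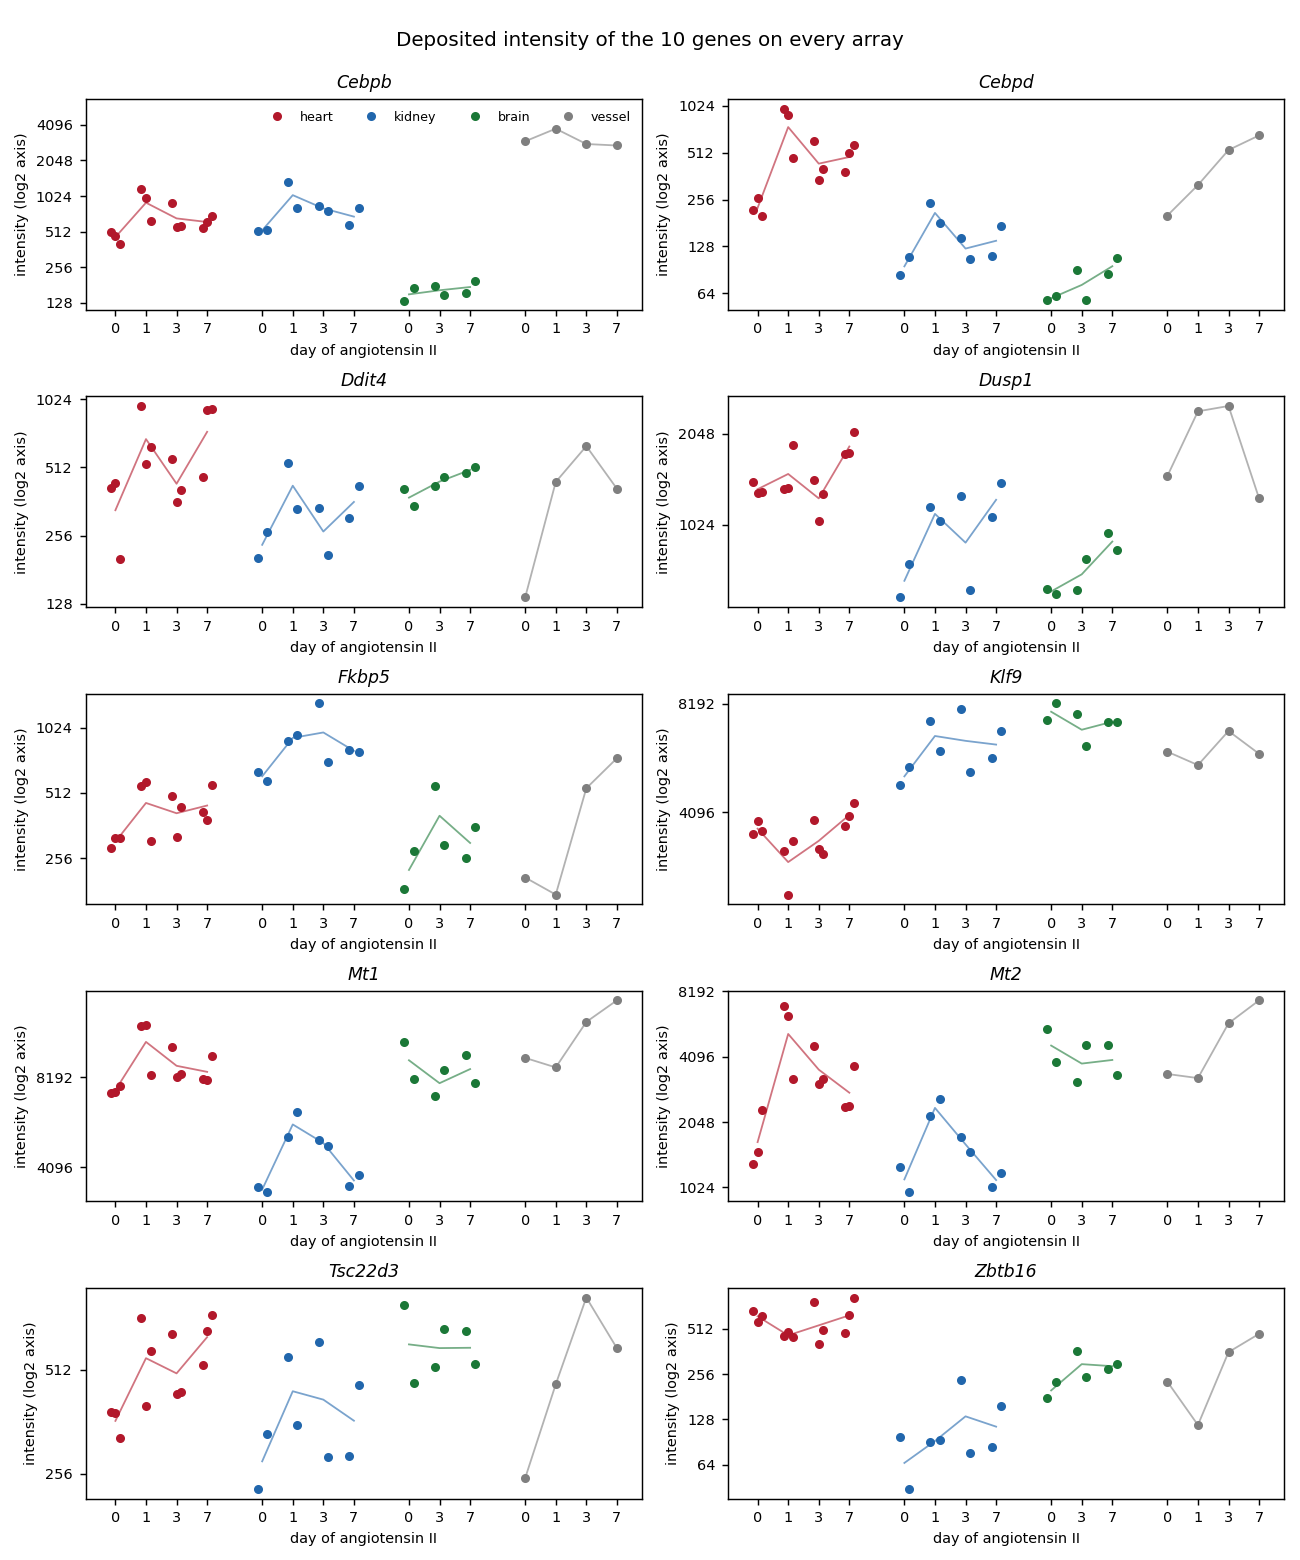
Deposited intensity (log2 axis) of each of the 10 genes on all 30 arrays by day of angiotensin II, with 1 panel per gene, points for arrays coloured by tissue and lines through the geometric mean of each group. Mt2 in heart spans 3224 to 7002 on day 1 and 1310 to 2321 on day 0, and Mt2 in kidney 2174 to 2604 on day 1 and 976 to 1270 on day 0.

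The calls differ in how firmly they hold. Mt2 and Cebpd in heart stayed past the threshold under all 17 other settings tried, including each of the 6 arrays left out in turn. Cebpb in heart passed under 14 and Mt1 under 10 of 17, with adjusted p up to 0.0809 and 0.148. Cebpb was lost without replicate 1 or 2 of day 1 or replicate 2 of day 0, and Mt1 without any 1 of the 6 arrays other than replicate 3 of day 1. In kidney the 2 metallothionein calls lie just inside the threshold: Mt1 passed under 7 and Mt2 under 6 of 17 settings, with adjusted p up to 0.224 and 0.203. The count of 4 genes called in heart became 7 without replicate 3 of day 1 and 2 without replicate 1 of day 1 or replicate 2 of day 0. The share of all genes called in heart on day 1 moved too, from 3.0% to 24.7% over the 17 settings. Both kidney calls were lost without replicate 2 of day 1 or either replicate of day 0. Over the same settings the kidney changes lay between 0.36 and 0.85 for Mt1 and between 0.90 and 1.27 for Mt2.

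The C/EBP factors had the other calls in heart. Cebpd, a transcription factor that acute phase signals induce within hours, had 982, 902 and 475 on the heart arrays of day 1, against 221, 262 and 201 on those of day 0. Replicates 1 and 2 of day 1 were near each other and replicate 3 was lower, yet each was above every untreated heart. The change was 1.66 ± 0.26, or 3.16-fold (adjusted p = 0.00371), the largest of the 10 in heart beside Mt2. Cebpb, its close relative, had 1168, 989.5 and 629 on the heart arrays of day 1, against 513, 468 and 406 on those of day 0, a change of 0.94 ± 0.21 (adjusted p = 0.0148). In kidney the same 2 genes had changes of similar or smaller size that did not pass. Cebpb had 1333 and 814 on the kidney arrays of day 1, against 518 and 532 on those of day 0, with a change of 0.97 ± 0.24 (adjusted p = 0.126). Cebpd had 243 and 181 on the kidney arrays of day 1, against 83.3 and 109 on those of day 0, with a change of 1.02 ± 0.24 (adjusted p = 0.117). Neither gene's groups overlapped in kidney. Their second probe sets read the same way in heart, at 0.66 for Cebpb (adjusted p = 0.0172 among all probe sets) and 0.85 for Cebpd (adjusted p = 0.0125).

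The genes most often used as readouts of the receptor itself did not pass in either organ on day 1. Fkbp5, a co-chaperone that holds the receptor back and is induced by it as feedback, had 552, 574 and 308 on the heart arrays of day 1, against 284, 317 and 316 on those of day 0. Replicates 1 and 2 were high, and replicate 3 lay within the untreated range. The change was 0.57 ± 0.22 (adjusted p = 0.105), and without replicate 3 it was 0.85 ± 0.17 (adjusted p = 0.00352), with adjusted p 0.00352 to 0.346 over 17 settings. In kidney Fkbp5 had 886 and 950.4 on the kidney arrays of day 1, against 642 and 581 on those of day 0. The kidney groups were apart, and the change was 0.58 ± 0.25 (adjusted p = 0.311). Tsc22d3, also called Gilz, which mediates anti-inflammatory actions of glucocorticoids, had 723, 403 and 578 on the heart arrays of day 1, against 386, 383 and 325 on those of day 0. Here replicate 2 was the low one of day 1, though still above day 0, and the change was 0.58 ± 0.20 (adjusted p = 0.0771). Without that array the Tsc22d3 change was 0.80 ± 0.19 (adjusted p = 0.0348), with adjusted p 0.0348 to 0.301 over 17 settings. In kidney Tsc22d3 had 555 and 354 on the kidney arrays of day 1, against 231 and 334 on those of day 0. The spread between kidney replicates was wide, and the change was 0.64 ± 0.40 (adjusted p = 0.471).

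Ddit4, also called Redd1, an inhibitor of mTORC1 signalling that both hypoxia and glucocorticoids induce, had 957, 530.5 and 629 on the heart arrays of day 1, against 414, 438 and 201 on those of day 0. One untreated heart was far below the others, and all treated hearts were above all untreated ones. The change was 1.01 ± 0.32 (adjusted p = 0.057, with adjusted p 0.0291 to 0.232 over 17 settings, the lowest in the joint fit), and in kidney it was 0.83 ± 0.30 (adjusted p = 0.246), from 536 and 337 on the kidney arrays of day 1, against 204 and 266 on those of day 0. Dusp1, a phosphatase that inactivates MAP kinases, had 1344, 1356 and 1880.1 on the heart arrays of day 1, against 1417, 1303 and 1309 on those of day 0. Replicate 3, the weakest array for Mt2, Cebpd and Fkbp5, was the highest for Dusp1, and replicates 1 and 2 lay within the untreated range, so the change was 0.17 ± 0.14 (adjusted p = 0.507). In kidney Dusp1 had 1169.7 and 1056 on the kidney arrays of day 1, against 588 and 758 on those of day 0, groups that did not overlap, with a change of 0.72 ± 0.31 (adjusted p = 0.312).

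Klf9 and Zbtb16 had the 2 negative changes in heart. Klf9, a Kruppel-like transcription factor that the receptor induces directly in many cells, had 3189.8, 2414 and 3414 on the heart arrays of day 1, against 3566, 3859 and 3629 on those of day 0. All 3 treated hearts were below all untreated ones, most of all replicate 2, and the change was -0.31 ± 0.13 (adjusted p = 0.142). In kidney Klf9 had 7357 and 6046 on the kidney arrays of day 1, against 4857 and 5460.1 on those of day 0. Both treated kidneys were above both untreated ones, and the change was 0.37 ± 0.20 (adjusted p = 0.403). Of the 7 Klf9 probe sets, 6 were tested in each organ, and their changes were -0.36 to -0.06 in heart and -0.08 to 0.53 in kidney. Zbtb16, also called Plzf, a zinc finger repressor that is a sensitive glucocorticoid target in human cells, had 455, 484 and 451 on the heart arrays of day 1, against 670.2, 568 and 622 on those of day 0. The treated hearts lay close together and were all lower than the untreated ones, with a change of -0.41 ± 0.21 (adjusted p = 0.231). In kidney, where the gene is dim, Zbtb16 had 90.9 and 92.8 on the kidney arrays of day 1, against 97.8 and 44.1 on those of day 0, and the change of 0.38 ± 0.50 (adjusted p = 0.751) was smaller than its error.

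**Figure D2:**
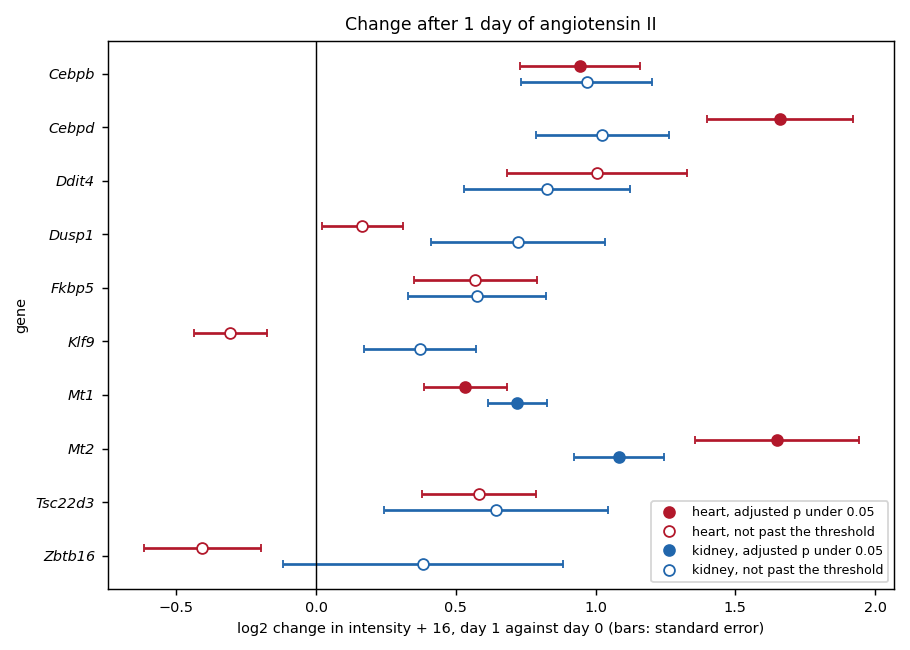
Change in log2(intensity + 16) from day 0 to day 1 for the 10 genes in heart (red, 3 arrays a group) and kidney (blue, 2 arrays a group). Bars are standard errors and filled points passed an adjusted p of 0.05. Mt1 and Mt2 are filled in both organs, Cebpb and Cebpd in heart only, and Klf9 and Zbtb16 lie left of 0 in heart.

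Whether groups were fully apart gives a count that does not rest on the estimated spread. In heart on day 1, 6 of the 10 genes were higher on every treated array than on any untreated one, where 11.4% of all genes tested were. Another 2 were lower on every treated array, against 18.5% of all genes. In kidney 9 of the 10 were apart and higher, against 26.4% of all genes, Zbtb16 being the exception, and 0 were apart and lower, against 22.7%. With 2 arrays a group such separation is common over all genes.

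The difference between the organs was tested directly, as the day 1 change in heart minus that in kidney, in a fit of 26 arrays that assumes 1 spread per gene for all tissues. Of the 10 genes, 0 passed (1 had an unadjusted p under 0.05), where 3.6% of all genes did, so the presence of calls for Cebpb and Cebpd in heart and their absence in kidney is not shown to be a difference. Klf9 came nearest, with a difference of -0.68 ± 0.23 (unadjusted p = 0.00894, adjusted p = 0.111). Without heart day 1 replicate 3 that difference was -0.78 ± 0.24 (adjusted p = 0.041), with adjusted p 0.041 to 0.362 over 21 settings. Zbtb16 differed by -0.79 ± 0.50 and Dusp1 by -0.56 ± 0.31, both lower in heart (adjusted p = 0.426 and 0.36). Cebpd differed by 0.64 ± 0.40 and Mt2 by 0.56 ± 0.44, both higher in heart (adjusted p = 0.43 and 0.544). Fkbp5, Tsc22d3 and Cebpb had differences of -0.01, -0.06 and -0.02 with errors of 0.41, 0.45 and 0.35, so differences of either sign near those errors could not be detected. Ddit4 differed by 0.18 ± 0.48 and Mt1 by -0.19 ± 0.23.

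Markers of other cell types also differed between day 1 and day 0. In heart the summed intensity of 8 neutrophil markers on the array was 5075, 7447 and 1538 on day 1 replicates 1, 2 and 3, against 309, 315 and 1333 on day 0, and 5 of the 8 rose. Replicate 3 of day 1, the lowest for Mt2, Cebpb, Cebpd and Fkbp5, also had the lowest neutrophil sum of its group. Replicate 3 of day 0 had the highest neutrophil sum of its group. It was the highest of that group for Mt2 and the lowest for Cebpb and Cebpd. Of 10 macrophage markers 4 rose in heart on day 1, where 4.9% of all genes did. In kidney the summed intensity of 6 adipocyte markers was 13823 and 15362 on day 1, against 1925 and 2147 on day 0. The 5 of them that were tested had a median change of 2.96, with 0 called. Neutrophil markers summed to 770 and 554 in kidney on day 1, against 226 and 254 on day 0, and 7 smooth muscle markers to 4063 and 3332, against 2322 and 2371. No marker of either list was called there. The part of these cell types in the heart and kidney values was not tested, other than as follows. In kidney a fit with the adipocyte markers as a covariate, added after the data were seen, gave 1.22 ± 0.24 (adjusted p = 0.203) for Mt2 and 0.74 ± 0.17 (adjusted p = 0.224) for Mt1. This fit cannot separate these markers from day 1, since both day 1 arrays were high in them and both day 0 arrays low. Its adjustment comes from differences within groups, and the adipocyte sum differed widely within a group only on day 3. On day 3 the adipocyte sum was 1992 and 25290 on replicates 1 and 2, and replicate 1 was the higher of the pair for all 10 genes. Without the 2 kidney arrays with adrenal cortex signal, also chosen after seeing the data, Mt2 stood at 0.90 ± 0.16 (adjusted p = 0.135) and Mt1 at 0.70 ± 0.15 (adjusted p = 0.169).

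**Figure D3:**
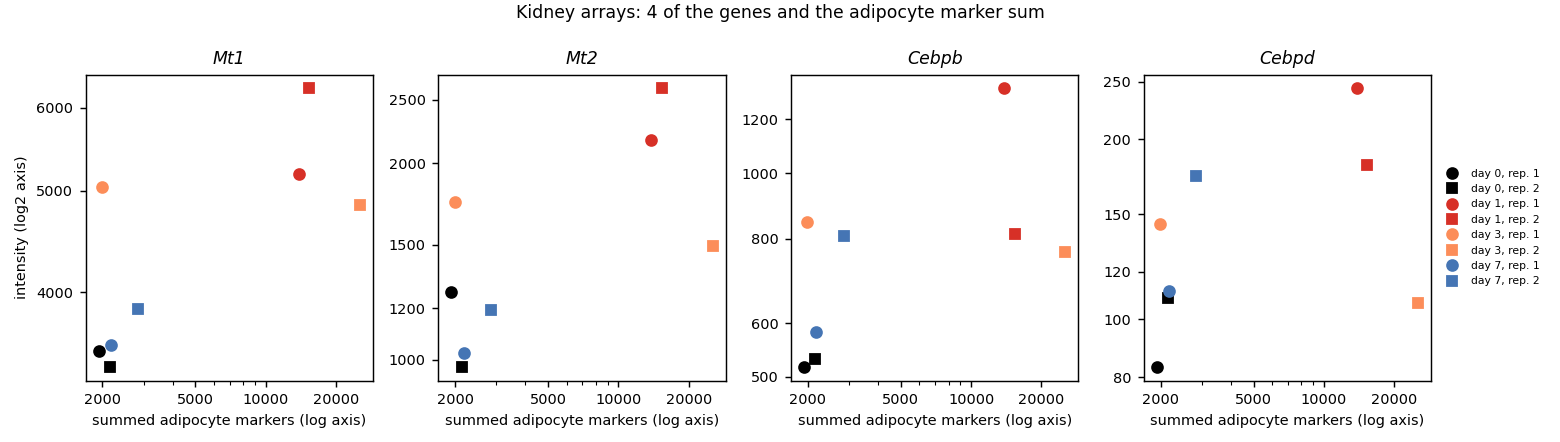
Intensity of Mt1, Mt2, Cebpb and Cebpd (log2 axes) against the summed intensity of 6 adipocyte markers (log axes) on each of the 8 kidney arrays, coloured by day, circles for replicate 1 and squares for replicate 2. The day 1 arrays lie at adipocyte sums of 13823 and 15362 and are highest for Mt1 and Mt2, and day 3 replicate 2 lies at 25290.

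On the later days 0 of the 10 genes were called in heart or kidney. Over all genes 0.0859% passed in heart on day 3 and 0.0501% on day 7, and 0% in kidney on both days, so few genes of any kind were called there. The changes were mostly positive all the same. In heart 7 of 10 were positive on day 3 and 10 of 10 on day 7, against 45.7% and 44.6% of all genes. In kidney 10 were positive on day 3 and 9 on day 7, against 53.9% and 55.8%. On day 7 in heart 8 of the 10 were apart and higher, where 9.35% of all genes were, and on day 3 the count was 6, where 7.4% were. In kidney 4 were apart and higher on day 3 and 7 on day 7, where 20.5% and 21.3% of all genes were.

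The genes followed different courses. Mt2 in heart had 7002, 6289 and 3224 on day 1, 4591, 3079 and 3224 on day 3 and 2402, 2438 and 3730.3 on day 7, and the days overlapped. Its change from day 0 was 1.10 ± 0.29 on day 3 (adjusted p = 0.17) and 0.75 ± 0.29 on day 7 (adjusted p = 0.496). From day 1, day 7 differed by -0.90 ± 0.29 (adjusted p = 0.0967). In kidney Mt2 had 1744 and 1494 on day 3 and 1025 and 1192 on day 7, the last within the untreated range. Day 7 stood at -1.09 ± 0.16 relative to day 1 (adjusted p = 0.175) and Mt1 at -0.62 ± 0.11 (adjusted p = 0.251), without overlap for either. Of the 10 genes, 5 were apart and lower in kidney on day 7 than on day 1, where 21.6% of all genes were. An F test over the 3 treated days of heart passed Cebpd (adjusted p = 0.0171) and Mt2 (adjusted p = 0.0251) of the 10, where 6.59% of all genes passed, and in kidney it passed 0, where 0.0565% did.

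In heart the group means of Dusp1, Ddit4 and Tsc22d3 were highest on day 7, though for each the arrays of days 1 and 7 overlapped. With arrays left out, the change from day 1 to day 7 ran from -0.073 to 0.43 for Ddit4. For Tsc22d3 it ran from -0.024 to 0.39. Dusp1 had 1758, 1765 and 2069.6 on the heart arrays of day 7, against 1417, 1303 and 1309 on those of day 0, a change of 0.47 ± 0.14 (adjusted p = 0.41). Tsc22d3 had 526, 664 and 735 on the heart arrays of day 7, against 386, 383 and 325 on those of day 0, a change of 0.78 ± 0.20 (adjusted p = 0.343). Ddit4 had 465, 920.5 and 930.5 on the heart arrays of day 7, against 414, 438 and 201 on those of day 0, a change of 1.11 ± 0.32 (adjusted p = 0.396). Cebpd had 384, 507 and 572 on the heart arrays of day 7, against 221, 262 and 201 on those of day 0, a change of 1.04 ± 0.26 (adjusted p = 0.327). For all 4 genes the groups did not overlap. In the fit on these 2 groups alone, Dusp1, Tsc22d3 and Cebpd passed, at adjusted p of 0.0467, 0.0196 and 0.00939. Each of the 3 passed under 1 of 17 settings. Over those settings the share of all genes called in this comparison ran from 0.033% to 1.23%. In kidney on day 7 Dusp1 had 1088 and 1408 on the kidney arrays of day 7, against 588 and 758 on those of day 0, the largest change of the 10 there at 0.88 ± 0.31 (adjusted p = 0.743). Klf9 in heart was higher on every day 7 array than on any day 1 array, by 0.43 ± 0.13 (adjusted p = 0.0747), which was so for 1 of the 10 and for 14.9% of all genes. Against day 1, 0 of the 10 passed in heart on day 3 or day 7, where 4.35% and 4.75% of all genes did, and 0 in kidney, where 0.0424% did on each day. Without heart day 1 replicate 3 the heart counts became 4 on day 3 and 6 on day 7, and without heart day 3 replicate 1 the day 3 count was 1. The share of all genes called against day 1 moved as well. Over 17 settings it ran from 0% to 14.7% on day 3 and from 0.0788% to 17.8% on day 7. The kidney day 7 count became 1 without kidney day 1 replicate 1. Day 7 against day 3 in heart called 0 of the 10 and 0% of all genes. Dusp1 had the smallest p of the 10 there, at 0.57 ± 0.14 (adjusted p = 0.603).

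**Figure D4:**
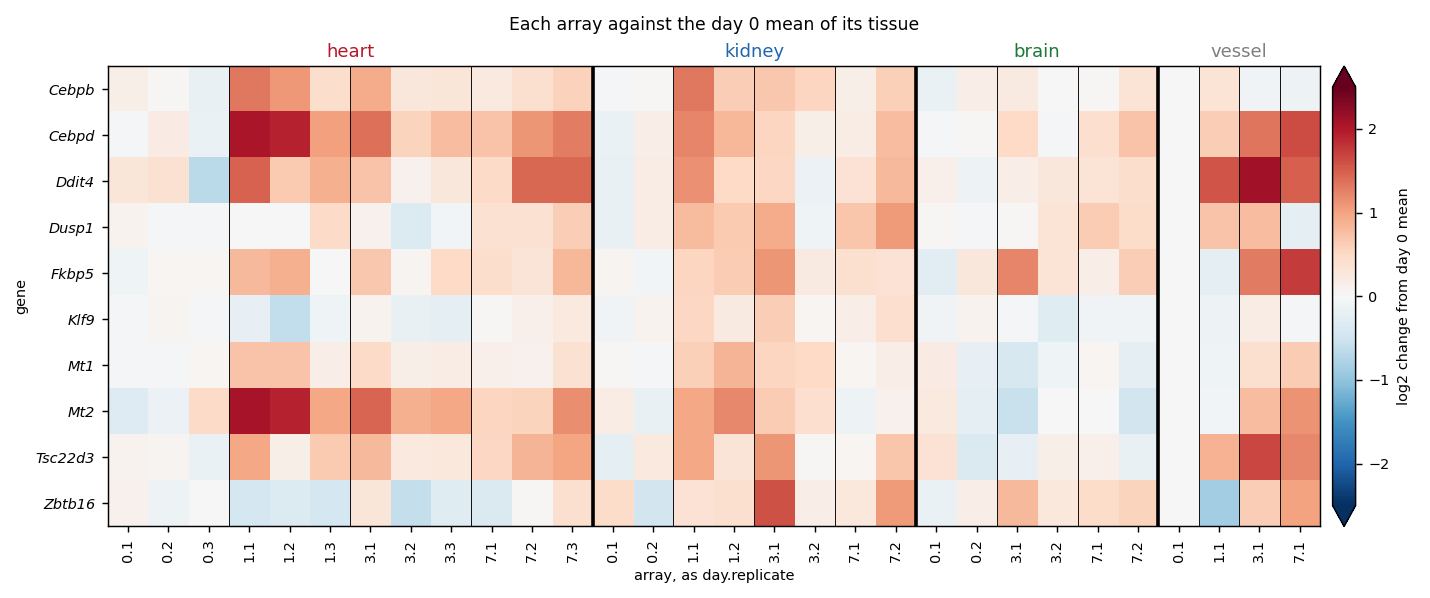
Difference of log2(intensity + 16) from the day 0 mean of the same tissue for each gene (rows) on each of the 30 arrays (columns, labelled day.replicate), red above and blue below that mean. Heart day 1 replicates 1 and 2 are deepest red for Mt2 and Cebpd, and kidney day 3 replicate 1 is red for nearly all genes while replicate 2 is pale.

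Brain, with no day 1 arrays, called 0 of the 10 on day 3 and on day 7, where 0% and 0% of the 14100 genes tested passed. The metallothioneins, which brain held at high levels throughout, overlapped between treated and untreated brain. Mt2 had 5480.3 and 3881 on day 0, 3137 and 4624 on day 3 and 4655 and 3366 on day 7, and its changes were -0.27 ± 0.29 and -0.22 ± 0.29 (adjusted p = 0.78 and 0.812). Fkbp5 had 184 and 278 on day 0, 550.0 and 294 on day 3 and 256 and 355 on day 7. The day 3 change of Fkbp5 was 0.79 ± 0.36 (adjusted p = 0.665), from groups that did not overlap but a wide gap between the 2 arrays of each. On day 3 in brain 3 of 10 were apart and higher, where 15.3% of all genes were. On day 7 Dusp1, Cebpd, Zbtb16 and Ddit4 were apart and higher, 4 of 10 where 16.1% of all genes were. Dusp1 had 960.5 and 844 on the brain arrays of day 7, against 629 and 602 on those of day 0, a change of 0.54 ± 0.15 (adjusted p = 0.669). Cebpd, dim in brain, had 84.9 and 107 on the brain arrays of day 7, against 57.6 and 61.2 on those of day 0, a change of 0.56 ± 0.21 (adjusted p = 0.669). Klf9 was apart and lower on day 7, at a change of -0.09, which made 1 of 10 where 24.1% of all genes were. Neutrophil markers summed to 847 and 7548 on the day 0 brain arrays, the second of them the higher. Skeletal muscle markers summed to 8459 and 4097 on day 0, 688 and 3254 on day 3 and 4685 and 1221 on day 7. The part of either in the brain values was not tested.

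Vessel had 1 array a time, so its values carry no test. Relative to the day 0 array, 1 of the 10 genes was at least 2-fold higher on day 1, 4 on day 3 and 6 on day 7, where 0.688%, 4.94% and 4.23% of 14248 genes were, and 0 were 2-fold lower on any of the 3, where 0.765%, 1.32% and 1.26% of all genes were. With all probe sets of each gene averaged, 3 genes reached 2-fold on day 7, Ddit4, Cebpd and Mt2, and Fkbp5 stood at 0.91 in place of 1.75. Mt1 and Mt2 did not stand out on day 1. Mt2 had 3410.2 on day 0 and 3265, 5840.4 and 7455 on days 1, 3 and 7. Fkbp5 had 209, then 174, 538 and 739, a difference of 1.75 by day 7. Cebpd had 202, then 317, 533 and 662, higher at each later time. These 3 genes were highest on the day 7 array. Ddit4 was the gene at least 2-fold higher on day 1, at 137 and then 442, 636 and 413. Tsc22d3 had 248, then 464, 827 and 590.3, with its peak on day 3. Zbtb16 was lower on day 1 (117 against 228) and higher on day 7 (474). Dusp1 had 1483, then 2431, 2532 and 1251. Cebpb and Klf9 lay between -0.12 and 0.35 of day 0 on the log2 scale. On these arrays the heart marker sum was 16425 on day 0 and 8833, 1798 and 15736 on days 1, 3 and 7, and Ucp1, the defining gene of brown fat, was 22424 and then 21637, 19400.4 and 11558, and the part of these other tissues in the values was not tested. Macrophage markers summed to 5175 on day 0 and 6395, 18184 and 11340 on days 1, 3 and 7, neutrophil markers to 661 and then 2243, 1680 and 1523, and brain markers to 250 and then 390, 1983 and 356. Their part was not tested either.

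Before treatment heart, kidney and brain differed widely in these genes, as most genes did, and the orders given here are among these 3 tissues. Untreated heart against untreated kidney called 6 of the 10, where 56% of all genes passed. Heart against brain called 6, where 73.1% did, and kidney against brain 7, where 66.4% did. Zbtb16 was highest in heart, at 670.2, 568 and 622, against 97.8 and 44.1 in kidney, a difference of 2.94 ± 0.35 (adjusted p = 5.77e-07), with brain between them at 176 and 225. Fkbp5 had 284, 317 and 316 in heart, against 642 and 581 in kidney and 184 and 278 in brain. Kidney had the most, and heart minus kidney was -0.96 ± 0.29 (adjusted p = 0.00862), and heart and brain did not differ beyond their spread (0.41 ± 0.29, adjusted p = 0.218). Mt2 was highest in brain (5480.3 and 3881), then heart and then kidney, and heart and kidney did not pass (0.57 ± 0.31, adjusted p = 0.131). Mt1 ran brain, heart, kidney, with heart against kidney at 1.10 ± 0.16 (adjusted p = 1.04e-05) and heart against brain at -0.33 ± 0.16 (adjusted p = 0.0787). Cebpb was lowest in brain (132 and 172) and differed by less than its error between heart and kidney (-0.18 ± 0.25). Cebpd was highest in heart, above kidney by 1.12 ± 0.29 (adjusted p = 0.0023) and above brain by 1.69 ± 0.29 (adjusted p = 3.29e-05). Dusp1 was also highest in heart, and kidney and brain did not differ beyond their spread (0.11 ± 0.24). Klf9 had the order brain, kidney, heart, each step past the threshold. With the mean of all its probe sets neither step passed. Heart minus kidney was then -0.23 (limma, adjusted p = 0.213) and kidney minus brain -0.23 (adjusted p = 0.236). Both steps were also lost with single day 0 arrays left out. Tsc22d3 ran brain, heart, kidney, and of its steps kidney minus brain passed at -1.08 ± 0.35 (adjusted p = 0.0106) while heart minus brain did not (adjusted p = 0.0505), and Ddit4 was called in 0 of the 3. The part of the skeletal muscle and neutrophil signal of the day 0 brain arrays in these orders was not tested. The day 0 vessel array stood above every untreated heart array for Dusp1, at 1483. On the same array Cebpb stood at 2969.6, above every other tissue, and Ddit4 at 137, below every untreated array of the rest.

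Replicates of 1 group varied more in these genes than in most. In heart the pooled standard deviation within groups was above that of 90% of the genes tested for 7 of the 10, up to 0.49 log2 units for Ddit4, where the median gene had 0.149. In kidney the same held for 8 of the 10, up to 0.66 for Zbtb16, with a median of 0.107. Mt1 in kidney, at 0.106, was near that median. In brain it held for 1, Fkbp5 at 0.46. Kidney on day 3 shows the pattern: replicates 1 and 2 had 1326 and 712 for Fkbp5, 616 and 285 for Tsc22d3, 1278 and 623 for Dusp1 and 233 and 77.0 for Zbtb16. Of that pair, replicate 2 had adipocyte markers at 25290, against 1992 on replicate 1. Its adrenal cortex markers summed to 10354, against 250. The part of these in the spread and in the signs below was not tested. Replicate 1 was the higher of that pair for all 10 genes. Heart day 3 replicate 1 was likewise above replicate 2 for all 10, with 496, 322 and 439.6 for Fkbp5 and 772, 406 and 500.4 for Zbtb16 on replicates 1, 2 and 3. Replicate 1 minus replicate 2 thus had the same sign in heart and kidney for 10 of 10 genes on day 3, 9 on day 7, 8 on day 1 and 4 on day 0, where it did for 53.9%, 53.4%, 49.5% and 55.5% of 12910 genes. Between brain and heart or kidney the count was 4 or 5 of 10 on every day. Of the 45 pairs among the 10 genes, 34 had a positive Pearson correlation within heart, 45 within kidney and 26 within brain. The counts of genes with the same sign in heart and kidney are therefore not 10 separate observations. What arrays of the same number share was not given.

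**Figure D5:**
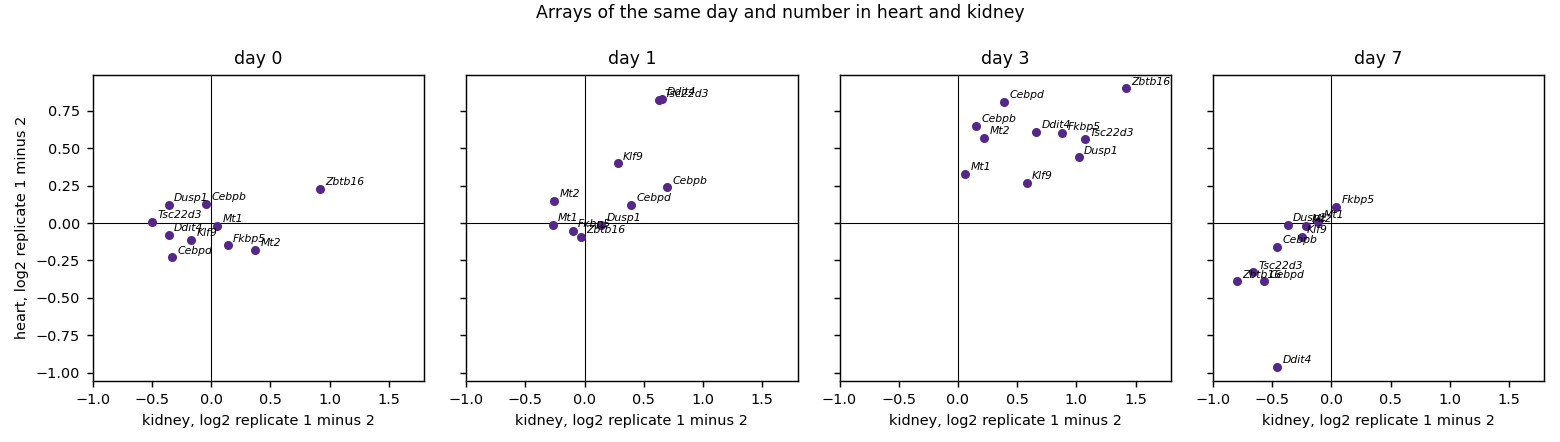
Replicate 1 minus replicate 2, in log2(intensity + 16), in heart (vertical) against kidney (horizontal) for each of the 10 genes on days 0, 1, 3 and 7. On day 3 all 10 genes lie in the upper right corner, above 0 on both axes. Kidney day 3 replicate 2 also carried adipocyte and adrenal cortex markers. The sign was the same in both organs for 9 of 10 genes on day 7 and for 4 of 10 on day 0.

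Over the 26 heart, kidney and brain arrays, with each tissue's mean subtracted, 42 of the 45 pairs among the 10 genes had a positive Pearson correlation, with a median of 0.45. The arrays share their day of treatment, so these values describe the data and are given without p. The closest pairs were Mt1 with Mt2 (0.91) and Cebpb with Cebpd (0.91), followed by Tsc22d3 with Ddit4 (0.79). Mt2 with Klf9 had the lowest value (-0.19), at -0.48 over the 12 heart arrays and 0.43 over the 8 kidney arrays. The median over pairs was 0.50 within heart, 0.67 within kidney, where all 45 were positive, and 0.12 within brain. Outside the 10, among 12900 genes, the profile most like Cebpd was that of Btg2 (0.92), like Cebpb Slc10a6 (0.86), like Klf9 Klf15 (0.84) and like Mt2 Errfi1 (0.83). For Mt1 it was Tspan4 (0.79), for Fkbp5 Erf (0.82), for Tsc22d3 Camta1 (0.81), for Ddit4 Irf2bp2 (0.80), for Dusp1 Nfkbia (0.77) and for Zbtb16 Ap5b1 (0.71).

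Probe sets of the same gene were compared by testing all probe sets one by one. Of the 26, 23 or 24 were tested in each organ, and 7 passed in heart on day 1, where 11.5% of 24428 probe sets did: both of Mt1, the single one of Mt2 and both of Cebpb and of Cebpd. In kidney 2 passed, 1 each for Mt1 and Mt2, where 0.585% of 24616 did. The 3 dimmer Tsc22d3 sets had changes of 0.39, 0.16 and -0.09 in heart beside 0.58 of the brightest, and the dimmer tested set of Fkbp5 had 0.31 beside 0.57. The 3 Zbtb16 sets had -0.41, -0.24 and -0.04 in heart and 0.38, 0.91 and 0.43 in kidney. An added value of 16 shrinks the changes of dim sets.

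The rest of the pathway was read from lists of genes chosen by function, with earlier results of these data known. The list counts stand beside 4.9% of all genes higher and 8.62% lower in heart on day 1, and 0.502% called in kidney. Of 28 other genes that glucocorticoids induce, 7 rose and 1 fell in heart on day 1, and 25 changes were positive, with a median of 0.30 (that of all genes tested was -0.02). The called ones with the largest changes were Lcn2 (3.08 ± 0.40), an iron-binding acute phase protein, Gadd45g (2.30 ± 0.30), a growth arrest gene, and Angptl4 (2.04 ± 0.43), an inhibitor of lipoprotein lipase. In kidney 0 of the 28 were called, 25 changes were positive and the median was 0.48 (0.01 over all genes). The smallest p there belonged to the cell cycle inhibitor Cdkn1a (1.09 ± 0.21, adjusted p = 0.0818) and Sult1a1 (1.01 ± 0.21, adjusted p = 0.0952). Of 9 tested genes of the receptor's own machinery, 1 rose and 1 fell in heart, Hsp90aa1 (0.94 ± 0.20) and Fkbp4 (-0.98 ± 0.13), a co-chaperone that takes the place of Fkbp5 on the receptor when hormone binds. Fkbp4 had -0.26 ± 0.10 in kidney (adjusted p = 0.274), and the receptor gene Nr3c1 had -0.28 ± 0.11 (adjusted p = 0.274).

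The other inducers of these genes were read the same way. Among 14 tested genes of zinc handling and the metal and oxidant response, other than Mt1 and Mt2, 3 rose in heart on day 1: Hmox1, heme oxygenase (1.36 ± 0.31), Gclm, of glutathione synthesis (0.83 ± 0.17), and Txnrd1, a thioredoxin reductase (0.74 ± 0.19). These 3 belong to the oxidant response, and 0 zinc transporters were called. In kidney 0 of 12 passed. Of 14 tested genes of interleukin 6 signalling and the acute phase, 10 rose in heart, led by Saa3 (3.20 ± 0.31), Lcn2, which the list above also holds (3.08 ± 0.40), and Il6 itself (3.01 ± 0.56), with a median of 1.47. In kidney 0 of 15 passed, 14 were positive and the median was 1.93, with Socs3, the feedback inhibitor of that pathway, at 0.82 ± 0.21 (adjusted p = 0.141) and Lcn2 at 3.46 ± 0.94 (adjusted p = 0.155). Of the 5 tested C/EBP family genes only the 2 members of the 10 were called in heart. Among 10 dual specificity phosphatases Dusp6 (0.87 ± 0.21), Dusp10 (0.71 ± 0.18) and Dusp5 (0.67 ± 0.16) rose in heart while Dusp1 was at 0.17. Of 11 Kruppel-like factors, Klf2 (0.77 ± 0.11) and Klf6 (0.72 ± 0.15) rose, and Klf9 was at -0.31. In kidney 0 genes of these 3 families were called.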

How the data were processed

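RNA of heart, kidney, brain and vessel was measured on 30 arrays, grouped by the tissue, day and replicate number in the sample labels. What the authors deposited is 1 linear intensity per probe set and array. The submitters' processing notes name Affymetrix Expression Console, without its algorithm or settings. The values ranged from 3.18 to 22424, and were not normalized again. Of 45101 probe sets, 64 are controls, 34945 have 1 symbol, 932 several and 9160 none. By Entrez identifier 34741 matched RefSeq, with 0 symbols changed. Each gene took its brightest probe set over all arrays, and values were analysed as log2(intensity + 16), which understates changes of dim genes. Genes above the array's 40th percentile on as many arrays as the tissue's smallest group holds were tested. limma 3.58.1 under R 4.3.3 fitted group means in heart (12 arrays), kidney (8) and brain (6), with Benjamini-Hochberg adjustment over all genes tested. Contrasts between tissues came from 1 fit of 26 arrays that assumes the same spread in each tissue. The number of arrays limits the precision, and p-values set a difference of group means against the spread between arrays within groups. The genes, lists and tests were chosen with earlier results of these data known. From each other list the text names up to 3 called genes by size of change, or up to 2 with the smallest p, and per gene of the 10 the most correlated other gene. The closing section gives the alternatives: filter, normalization, probe set rule, added value, prior variance, replicate block, only the groups compared, joint fit, correlated arrays, and each array left out, where a lone array was taken to vary like other groups. Uncalled values within 1 standard error of 0 in both fits counted as keeping their direction. Code was tested on simulated data. Promoters are RefSeq's for GRCm38.p6; the sources used here do not give the build behind the array annotation. Python 3.11.15, pandas 2.3.3, numpy 2.4.6 and matplotlib 3.10.9 made tables and figures.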

Additional observations from a re-analysis of the deposited data

Results flagged for a closer look

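Klf9 lay on opposite sides of its untreated level in different organs, with every treated array of one organ on one side of its untreated arrays and every treated array of the other organ on the other side. On day 1 its change was -0.31 in heart and 0.37 in kidney, and the test of that difference gave -0.68 ± 0.23 (limma, adjusted p = 0.111). On day 7 its change was 0.29 in kidney and -0.09 in brain, and that difference was not tested. With 2 or 3 arrays a group, full separation of groups is frequent over all genes: 18.5% of genes were apart and lower in heart on day 1 and 26.4% apart and higher in kidney. On day 7, 21.3% of genes were apart and higher in kidney and 24.1% apart and lower in brain.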

How the results depend on the processing

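Of the counts of the 10 genes called, 268 recomputed counts lay within 1.5 times the reported one and 21 did not. The 2 kidney calls of day 1 became 0 with no filter, with the mean of all probe sets, with an added value of 1, with the replicate block and with only the groups compared, and 1 in the joint fit. They also became 0 in the 2 settings added after seeing the data, without the 2 kidney arrays with adrenal cortex markers and with the adipocyte covariate. In heart on day 7 the count was 3 with only the groups compared, and over all genes the settings called 0.033% to 1.23%. With arrays left out in turn the counts ranged from 2 to 7 in heart and 0 to 2 in kidney on day 1, from 0 to 4 for heart day 3 against day 1, from 0 to 6 for heart day 7 against day 1, from 0 to 1 for kidney day 7 against day 1 and from 0 to 1 for heart minus kidney. In heart on day 1 it was 2 with replicate 1 of day 1 or replicate 2 of day 0 left out, and 7 with replicate 3 of day 1 left out. Over all genes the settings called 0% to 14.7% for heart day 3 against day 1. For heart day 7 against day 1 they called 0.0788% to 17.8%. In vessel 3 genes, in place of 6, reached 2-fold with the mean of all probe sets. Changes of single genes kept their sign and side of the threshold in 2873 cases, lost it in 41, gained it in 33, moved in 5 (Fkbp5 and Tsc22d3 on days 3 and 7 and Cebpd on day 7 in vessel, which has no replicates, judged against the pooled spread of each gene in the other tissues) and turned sign in 18. With the mean of all probe sets Mt1 turned to 0.27 for heart minus kidney, to 0.24 for untreated heart against brain and to 0.16 in vessel on day 1. For kidney day 3 against day 1, leaving out the adrenal arrays turned Tsc22d3 to 0.46, Dusp1 to 0.20 and Klf9 to 0.24, and the adipocyte covariate turned Fkbp5 to -0.13. For kidney day 7 against day 1 the covariate turned Zbtb16 to -0.68 and Dusp1 to -0.56. With arrays left out, changes that were not called turned sign for Dusp1 (-0.096 to 0.92) in kidney on day 3, Mt2 (-0.20 to 0.18) in kidney on day 7, Cebpd (-0.030 to 0.49) and Tsc22d3 (-0.40 to 0.33) in brain on day 3, Tsc22d3 (-0.40 to 0.33) in brain on day 7, Zbtb16 (-0.036 to 0.41) for heart day 3 against day 1, and Fkbp5 (-0.36 to 0.52), Tsc22d3 (-0.61 to 0.46) and Klf9 (-0.33 to 0.24) for kidney day 3 against day 1. The causes were not tested. The replicate block put Mt1 in heart on day 1 at an adjusted p of 0.0556, with 3 of the 10 genes called, and Mt1 and Mt2 in kidney at 0.07 and 0.078. Within a tissue the labels do not say whether the numbers pair arrays of different days. Deviations of same-numbered arrays from group means correlated between -0.33 and 0.15 in heart, -0.09 and 0.25 in kidney and -0.65 and 0.47 in brain. With so few arrays a group these values cannot settle it. Where a group has 2 arrays, their deviations are equal and opposite. Whether a number pairs arrays across organs is not known. Over all genes the heart day 1 count of 1889 ranged from 419 to 3455 and the kidney count of 71 from 0 to 250. Quantile normalization moved the median of all genes for untreated heart against brain from 0.06 to 0.16, with 8 of the 10 called in place of 6 and Ddit4, not called, at 0.05 in place of -0.17.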

Other observations

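Genes around the 10 that share their inducers were read on day 1 as well. Over all genes tested 4.9% rose and 8.62% fell in heart on day 1, and 0.502% were called in kidney. Of 23 tested immediate early genes, which growth and stress signals switch on within an hour, 16 rose in heart, led by Fos (2.34 ± 0.29), Egr1 (1.97 ± 0.29) and Btg2 (1.93 ± 0.35), and 0 of 21 passed in kidney, where Jun stood at 0.67 ± 0.11 (adjusted p = 0.0631) and Btg2 at 0.97 ± 0.22 (adjusted p = 0.104). Of 18 circadian clock genes, 0 rose and 2 fell in heart, Rora (-0.61 ± 0.15) and Per3 (-0.54 ± 0.16), and 0 passed in kidney, where Nfil3 had 0.60 ± 0.16 (adjusted p = 0.153). Of 14 genes of mTOR and hypoxia stress, Ddit4 among them, Asns rose (1.00 ± 0.27) and Sesn3 (-0.60 ± 0.17) and Sesn1 (-0.52 ± 0.15) fell in heart, with a median of 0.00, while in kidney 13 of 14 changes were positive, 0 passed and Adm had 0.61 ± 0.12 (adjusted p = 0.089).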
